A study of Mus musculus with 10 samples.

Results

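The genes described here are 10 genes of iron and heme handling in mouse liver, chosen by name: the hepcidin genes Hamp and Hamp2, the hemoglobin and heme scavengers Hp and Hpx, the ferritin subunits Fth1 and Ftl1, the iron exporter Slc40a1, the transferrin receptors Tfrc and Tfr2, and the siderophore-binding protein Lcn2. They are 10 of the 38922 genes in the deposited tables, and all 10 had enough counts to be tested. Liver RNA was sequenced from wild-type male C57BL/6N mice aged 6 weeks. One group of 5 mice received CD95-Ab, which activates the death receptor CD95 (Fas), at 0.5 µg per g of body weight into the peritoneum, and the control group of 5 mice received an equal volume of saline. All livers were taken 6 h after the injection, each mouse gave its own library, and the comparison asks which transcripts differed between the livers of these groups.

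Hepcidin is a small hormone made by hepatocytes. It binds ferroportin, the product of Slc40a1, and so keeps iron inside macrophages, enterocytes and hepatocytes, and its gene is controlled by bone morphogenetic protein (BMP) signals that report iron stores and by interleukin 6 through STAT3. Free hemoglobin and heme in plasma are bound by haptoglobin and hemopexin, which are acute-phase proteins of the liver, and iron inside cells is stored in ferritin. Ferritin, ferroportin and transferrin receptor transcripts carry iron-responsive elements, stem-loops bound by iron regulatory proteins that set translation or transcript stability, so part of their control is not visible in transcript levels.

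The sequences below are shown because the results for the hepcidin genes and for Lcn2 concern genes with known control sites close to the start. Each is the 150 bases before the transcript start in RefSeq (GRCm38.p6), on the minus strand and written 5′ to 3′. Hamp lies at chr7:30944030-30944179, Hamp2 at chr7:30924182-30924331 and Lcn2 at chr2:32387740-32387889. In GENCODE release M21, longer transcripts of Hamp2 and Lcn2 start further upstream, so these bases lie inside the annotated span of both genes. Capitals mark matches to TTCNNNGAA, the pattern of STAT sites, to GGCGCC, a pattern of BMP response elements, and to the NF-kB pattern, GGG and TCC with 4 bases of any kind between, on either strand.
Hamp: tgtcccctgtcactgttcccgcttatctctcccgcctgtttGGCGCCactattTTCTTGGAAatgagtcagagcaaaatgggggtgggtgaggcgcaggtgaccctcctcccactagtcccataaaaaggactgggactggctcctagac
Hamp2: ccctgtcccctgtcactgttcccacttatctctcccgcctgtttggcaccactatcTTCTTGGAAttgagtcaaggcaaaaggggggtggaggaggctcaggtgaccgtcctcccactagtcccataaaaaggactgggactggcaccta
Lcn2: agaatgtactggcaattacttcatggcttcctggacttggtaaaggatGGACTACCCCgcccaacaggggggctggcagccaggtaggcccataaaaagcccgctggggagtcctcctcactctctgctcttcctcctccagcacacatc

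Both hepcidin promoters held the same STAT match, 97 to 89 bases before the start in Hamp and 94 to 86 in Hamp2, and only Hamp held GGCGCC, 109 to 104 bases before the start. Over the 21 bases that span both motifs in Hamp, the Hamp2 sequence differed at 2 positions, G4A and T12C, counted from 1 at the first G of GGCGCC with the Hamp base first. The window from 250 bases before to 50 after the start was 91.1% identical between the genes. Lcn2 held the reverse complement of the NF-kB pattern 102 to 93 bases before its start. Among 32851 such windows of RefSeq, 8.3% held the STAT pattern, 11.9% GGCGCC and 19.2% the NF-kB pattern. The other genes in the promoter table were Hpx, Fth1 and Ftl1, without a match, Tfrc, with GGCGCC at 1 of its starts, and Tfr2, with NF-kB matches at 2 of its 3 starts. A match of letters is a description of the sequence and not evidence of binding.

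The iron-responsive elements are shown because 4 of the 10 genes share them, and they set apart 2 classes of transcript. Each line gives 27 bases of the GENCODE M21 transcript around the 6-base loop CAGTGN, in capitals, of a stem-loop found by its pairing. The loop began at base 99 of transcript Fth1-201, base 90 of Ftl1-201 and base 102 of Slc40a1-201, all in the 5′ untranslated region, and the first element of Tfrc began at base 3327 of Tfrc-201, in the 3′ untranslated region.
Fth1: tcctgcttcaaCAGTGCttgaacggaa
Ftl1: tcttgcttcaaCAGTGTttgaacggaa
Slc40a1: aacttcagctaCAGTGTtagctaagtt
Tfrc: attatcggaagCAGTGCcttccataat

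Tfrc held 4 such elements, the others with loops beginning at bases 3706, 3771 and 3818. By the same search, 0.105% of 21901 protein-coding genes held an element in the 5′ region and 0.457% in the 3′ region. Placement before the coding sequence, as in both ferritins and Slc40a1, is the arrangement in which iron regulatory proteins block translation, and placement after it, as in Tfrc, the one in which they protect the transcript from decay.

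The totals were between 25965699 and 62097636 counts per mouse, and 3 counts correspond to 0.048 to 0.116 CPM, which are counts per 1000000 of the total. The totals behind the CPM below were adjusted with TMM factors, which discount very abundant genes. Features of 3 single mice touch the results below. In saline replicate 5 and CD95-Ab replicate 4, genes with transcripts under 1000 bases were high relative to genes with transcripts over 4000 bases, by 0.54 and 0.68 in the median log2 deviation, against -0.38 to 0.10 in the other mice. In saline replicate 2 the acute-phase gene Saa1 stood at 1456 CPM, against 98.3 to 299.8 CPM in the other saline-injected mice. The 10 hepatocyte markers summed to 108515 to 138203 CPM in saline-injected mice and 51718 to 90775 CPM after CD95-Ab, without overlap, and albumin (Alb) made up most of that sum. Of these markers 5 were lower (50%, beside 22.0% of all tested genes) and 5 did not pass, among them Apob (0.17) and Tat (0.31 on the log2 scale). In bulk tissue, fewer cells of a type and less RNA per cell cannot be told apart. The p-values judge the difference between the groups against the variation between mice.

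After CD95-Ab, 3 of the 10 genes were higher (Lcn2, Hp and Hpx), 2 were lower (Slc40a1 and Tfr2) and 5 did not pass an FDR of 0.05 (quasi-likelihood test of edgeR, adjusted over 13719 genes). Across all tested genes 47.3% passed, 25.4% higher and 22.0% lower, so the number of members called was near the background. Only Lcn2 also passed a log2 fold change of 2, which 6.59% of tested genes did upward. Every mouse injected with CD95-Ab lay above every control for Hp and Lcn2 and below every control for Tfr2, separations that 33.3% of tested genes showed, 18.6% upward and 14.7% downward. The median log2 fold change of the 10 genes was 0.08, beside 0.0064 over all tested genes.

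**Figure D1:**
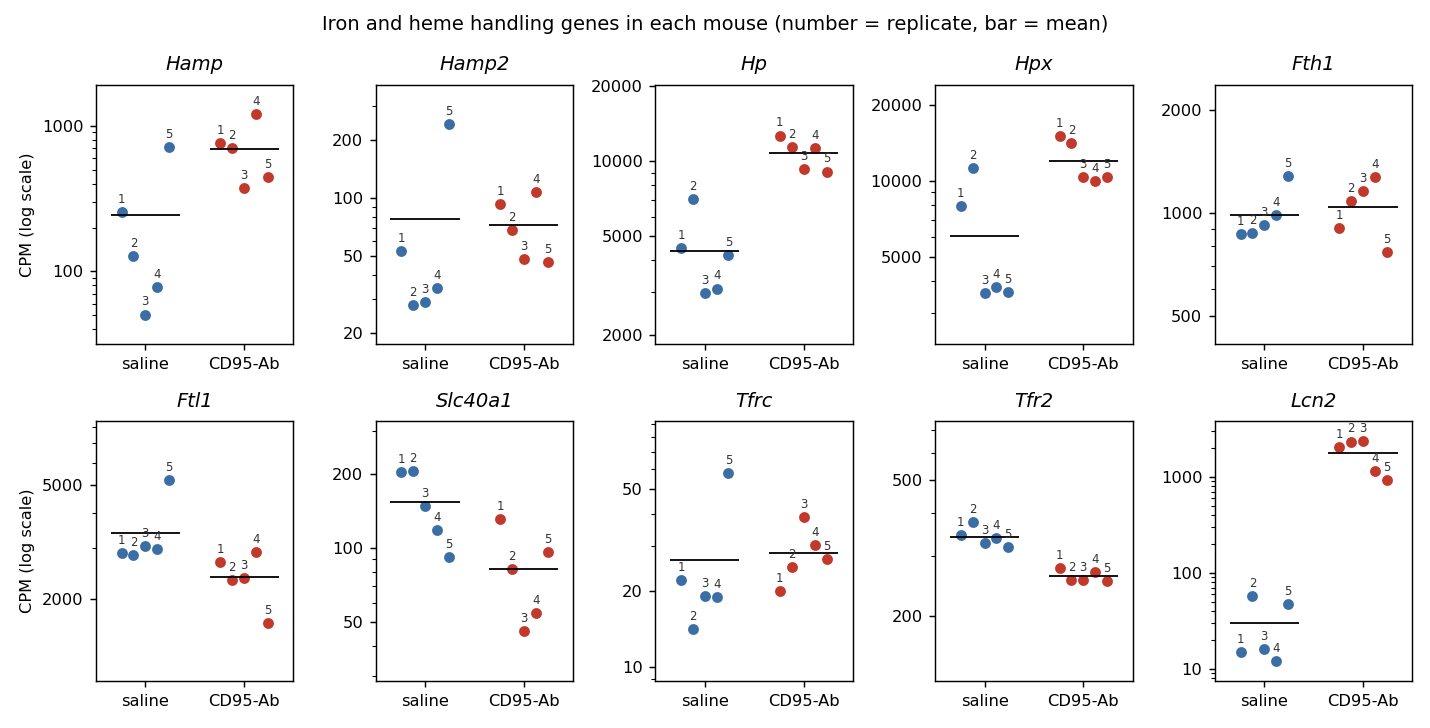
CPM of each of the 10 genes in every mouse, on a logarithmic axis whose range differs between panels. Each numbered point is a mouse and each bar a group mean. Hp and Lcn2 were higher and Tfr2 lower after CD95-Ab without overlap, and saline replicate 5 is the highest control for Hamp, Hamp2, Fth1, Ftl1 and Tfrc.

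Hamp, which encodes hepcidin, was high in all mice injected with CD95-Ab and in 1 control. Hamp (ENSMUSG00000050440, chr7:30942368-30944032 in GRCm38, minus strand) was at 254, 128, 50.5, 78.3 and 718 CPM in saline replicates 1 to 5. After CD95-Ab the levels were 756, 704, 374, 1199 and 443 CPM. Saline replicate 5 lay within the range of the CD95-Ab group, and the other 4 controls lay below it. The log2 fold change was 1.50 ± 0.64 (SE) and did not pass (edgeR FDR = 0.0711, n = 5 mice per group). Without saline replicate 5, it was 2.44 with an edgeR FDR of 0.00244. That mouse also held relatively more short transcripts, and the effective length of Hamp was 335 bases; the part of this in its Hamp level was not tested. Without saline replicate 5 and CD95-Ab replicate 4, the mice with more short transcripts, the log2 fold change was 2.15 (edgeR FDR = 0.00476). The likelihood ratio test of edgeR on all mice gave an FDR of 0.0331 at the same fold change. Limma on log2(FPKM + 0.1) gave 1.94 with an FDR of 0.016. DESeq2 did not call Hamp (FDR = 0.0728). In edgeR, Hamp also did not pass with RLE size factors, another scaling (FDR = 0.0775), or total counts alone (FDR = 0.0521). The same held without a filter (edgeR FDR = 0.0669) and with at least 10 counts required in every mouse (edgeR FDR = 0.071). Of the 10 fits that left out a mouse, only the fit without saline replicate 5 called Hamp.

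Hamp2, the second hepcidin gene of the mouse, had overlapping ranges in the groups and did not pass. Hamp2 (ENSMUSG00000056978, chr7:30922372-30924681, minus strand) was at 53.3, 27.8, 29.0, 34.2 and 243 CPM in the controls, and at 93.8, 68.5, 48.5, 107 and 46.6 CPM after CD95-Ab. Saline replicate 5 was the highest of all 10 mice, and CD95-Ab replicates 3 and 5 lay below saline replicate 1. The log2 fold change was -0.09 ± 0.58 (SE; edgeR FDR = 0.907). Without saline replicate 5 it was 1.02 with an edgeR FDR of 0.0165, and without that mouse and CD95-Ab replicate 4 it was 0.82 (edgeR FDR = 0.0317). Limma on log2(FPKM + 0.1) with all mice gave 0.33 (FDR = 0.604), so the direction for Hamp2 was not stable.

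The 2 hepcidin genes varied together among mice of a group, but their proportion differed between groups. The deviations of log2 CPM from the group means correlated with r = 0.915 over the 10 mice, as a description of libraries that share depth and transcript length. The log2 ratio of Hamp2 to Hamp counts was -2.25, -2.20, -0.80, -1.19 and -1.56 in the controls and -3.01, -3.36, -2.95, -3.48 and -3.25 after CD95-Ab. Every CD95-Ab mouse lay below every control, saline replicate 5 included. The mean fell from -1.60 ± 0.63 to -3.21 ± 0.23 (SD, n = 5), a 3.05-fold lower proportion (exact permutation test, two-sided, p = 0.00794, adjusted p = 0.0159 over the 4 ratios tested here). The smallest p that 5 mice against 5 allow is 0.00794. By FPKM, which accounts for length, Hamp2 made up 15.6% to 33.6% of hepcidin transcripts in the controls and 7.30% to 10.2% after CD95-Ab. The transcripts are 92.4% identical, with an identical run of 87 bases, so the split between the genes depends on how RSEM shared out reads that fit both.

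**Figure D2:**
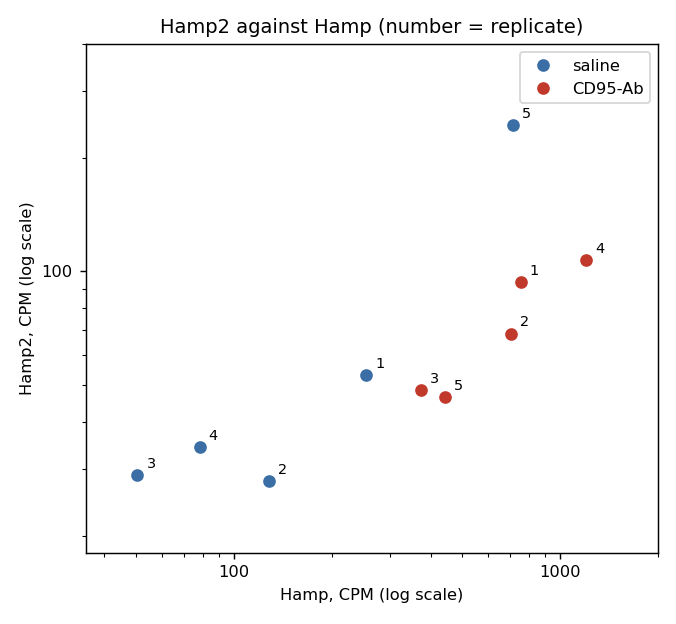
Hamp2 against Hamp in CPM, both on logarithmic axes, with 1 numbered point per mouse. Mice injected with CD95-Ab (red) had less Hamp2 relative to Hamp than every control (blue), and saline replicate 5 stood at 243 CPM of Hamp2.

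Haptoglobin and hemopexin were the most abundant of these transcripts after CD95-Ab. Hp (ENSMUSG00000031722, chr8:109575128-109579172, minus strand) encodes haptoglobin, which binds free hemoglobin. Its levels were 4497, 7080.4, 2951, 3085 and 4198 CPM in the controls and 12679, 11418, 9273, 11263 and 9093 CPM after CD95-Ab. The groups did not overlap, and the highest control was saline replicate 2, the mouse with the high Saa1. Hp rose by 1.30 ± 0.26 on the log2 scale (SE), or 2.46-fold (edgeR FDR = 0.00148), and passed in all 10 fits that left out a mouse.

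Hpx (ENSMUSG00000030895, chr7:105591613-105600137, minus strand) encodes hemopexin, which binds free heme. It was at 7906, 11222, 3607, 3804 and 3616 CPM in the controls and at 14989, 14055, 10294, 9989 and 10299.8 CPM after CD95-Ab. Saline replicate 2 lay above CD95-Ab replicates 3, 4 and 5, and the other controls lay below all of that group. Hpx rose by 0.98 ± 0.35 on the log2 scale (SE; edgeR FDR = 0.0339), a call that held in 5 of the 10 fits that left out a mouse, with edgeR FDR values from 0.00406 to 0.0858. It was lost without saline replicate 3, 4 or 5 or CD95-Ab replicate 1 or 2, without saline replicate 5 and CD95-Ab replicate 4 together (edgeR FDR = 0.0738), and with scaling by total counts alone (edgeR FDR = 0.0908).

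The log2 ratio of Hp to Hpx was -0.37 ± 0.40 in the controls and -0.14 ± 0.18 after CD95-Ab (SD, n = 5; exact permutation test, two-sided, p = 0.222, adjusted p = 0.222). Without saline replicate 5 the difference was 0.38 in place of 0.23 (adjusted p = 0.0317, exact permutation test). Erythroid markers, mostly globin transcripts, summed to 137 to 326 CPM in the controls and 1064 to 34016 CPM after CD95-Ab. Of the 8 tested, 7 were higher (87.5%, beside 25.4% of all tested genes) and 1, Klf1, was lower without overlap (log2 fold change -1.40, edgeR FDR = 0.00178). Within the groups, Hp was highest in CD95-Ab replicate 1, which had the lowest erythroid sum of its group (1064 CPM), and in saline replicate 2, which had the highest of the controls (326 CPM). The part of red cell content in the Hp and Hpx levels was not tested. Other positive acute-phase genes rose with Hp and Hpx. Of 17 on the list, 14 were higher (82.4%, beside 25.4% of all tested genes) and 3 did not pass, with a median log2 fold change of 1.52. The genes whose log2 CPM tracked Hp most closely over the 10 mice, Saa1 (r = 0.988) and Saa2 (r = 0.986), are acute-phase genes as well.

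The ferritin subunits did not pass the test singly, while their proportion differed. Fth1 (ENSMUSG00000024661, chr19:9980598-9985098, plus strand) encodes the heavy chain, which oxidises iron for storage. It was at 865, 873, 920.0, 989.7 and 1279.8 CPM in the controls and 906, 1087, 1164, 1275 and 767 CPM after CD95-Ab. The ranges overlapped almost entirely, and the log2 fold change was 0.08 ± 0.18 (SE; edgeR FDR = 0.747), with the sign changing under scaling by total counts alone (-0.0053).

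Ftl1 (ENSMUSG00000050708, chr7:45457944-45459884, minus strand) encodes the light chain, which promotes formation of the iron core. Its levels were 2895, 2842, 3052, 2995 and 5230.5 CPM in the controls and 2678, 2329, 2356, 2924 and 1646 CPM after CD95-Ab. CD95-Ab replicate 4 was the only mouse of its group within the range of the controls. The log2 fold change was -0.51 ± 0.23 (SE; edgeR FDR = 0.0817). It passed with DESeq2 (FDR = 0.0383), with total counts alone (edgeR FDR = 0.0341) and with limma on FPKM (FDR = 0.0363). It did not pass with the likelihood ratio test of edgeR (FDR = 0.0635), RLE size factors (edgeR FDR = 0.0806) or no filter (edgeR FDR = 0.0953). Nor did it with at least 10 counts in every mouse (edgeR FDR = 0.0963) or a block for the replicate number (edgeR FDR = 0.172). Of the 10 fits that left out a mouse, 0 called Ftl1 (edgeR FDR values from 0.0593 to 0.205). Ferritin pseudogenes held at most 0.969 CPM in any mouse.

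The log2 ratio of Ftl1 to Fth1 counts was 1.74, 1.70, 1.73, 1.60 and 2.03 in the controls and 1.56, 1.10, 1.02, 1.198 and 1.10 after CD95-Ab. All mice injected with CD95-Ab lay below all controls, with CD95-Ab replicate 1 closest to them. The mean fell from 1.76 ± 0.16 to 1.196 ± 0.22 (SD, n = 5), a 1.48-fold lower proportion of light to heavy chain (exact permutation test, two-sided, p = 0.00794, adjusted p = 0.0159). Effective lengths of 907 and 809 bases placed both transcripts in the short class, and the difference was between -0.66 and -0.50 over the 10 ways of leaving out a mouse.

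**Figure D3:**
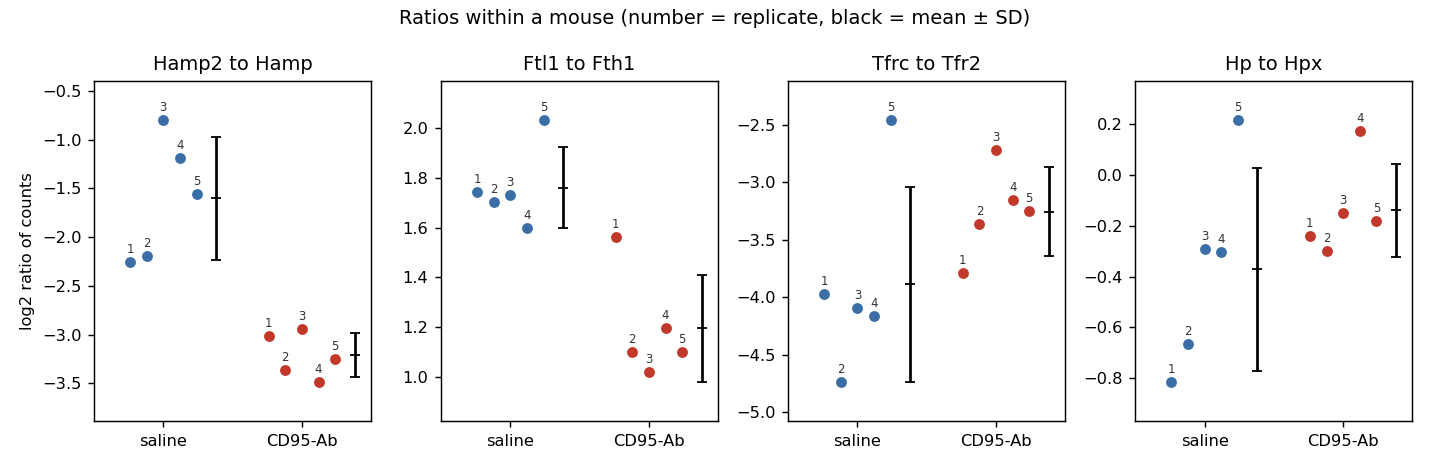
Log2 ratios of counts of 2 genes within each mouse. Numbered points are mice and black marks are means ± SD (n = 5), and each panel has its own linear axis. The ratios of Hamp2 to Hamp and of Ftl1 to Fth1 were lower after CD95-Ab without overlap, and those of Tfrc to Tfr2 and of Hp to Hpx overlapped.

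Slc40a1 (ENSMUSG00000025993, chr1:45908068-45926523, minus strand) encodes ferroportin, the known cellular iron exporter, which is abundant in Kupffer cells. It was at 204, 205, 148, 119 and 91.7 CPM in the controls and at 131, 82.5, 46.0, 54.5 and 96.4 CPM after CD95-Ab. CD95-Ab replicates 2, 3 and 4 lay below all controls, and replicates 1 and 5 lay within their range. Slc40a1 fell by 0.90 ± 0.30 on the log2 scale (SE), or 1.87-fold (edgeR FDR = 0.0278). The call held in 5 of the 10 fits that left out a mouse (edgeR FDR values from 0.00878 to 0.0658). It was lost without saline replicate 1 or 2 or CD95-Ab replicate 2, 3 or 4, and its FDR was 0.0503 with total counts alone. The 10 Kupffer cell markers summed to 173 to 581 CPM in the controls and 330 to 753 CPM after CD95-Ab, with overlap. Of these markers 3 were higher (30%, beside 25.4% of all tested genes) and 7 did not pass. The part of Kupffer cell content in the Slc40a1 level was not tested.

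The 2 transferrin receptors differed in their results. Tfr2 (ENSMUSG00000029716, chr5:137569840-137587481, plus strand) encodes the hepatocyte receptor that takes part in sensing transferrin-bound iron. It was at 344, 377, 326, 339 and 317 CPM in the controls and at 276, 254, 255, 269 and 253 CPM after CD95-Ab. The mice of each group lay close together and the groups did not overlap. Tfr2 fell by 0.38 ± 0.11 on the log2 scale (SE), or 1.30-fold (edgeR FDR = 0.0114), and passed in all 10 fits that left out a mouse. The median over the 10 hepatocyte markers was -0.75 on the same scale, and the part of hepatocyte content in the Tfr2 level was not tested. The gene that tracked Tfr2 most closely was Csk (r = 0.990).

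Tfrc (ENSMUSG00000022797, chr16:32608920-32632794, plus strand) encodes the receptor that takes up transferrin-bound iron in most cells. It was at 22.0, 14.2, 19.05, 18.9 and 57.5 CPM in the controls and at 19.9, 24.7, 38.7, 30.1 and 26.6 CPM after CD95-Ab. Saline replicate 5 was the highest of all mice, and CD95-Ab replicate 1 lay among the other controls. The log2 fold change was 0.09 ± 0.34 (SE; edgeR FDR = 0.852), against 0.59 without saline replicate 5 (edgeR FDR = 0.0227) and 0.56 without that mouse and CD95-Ab replicate 4 (edgeR FDR = 0.0438). The effective length of Tfrc was 3448 bases, between the classes under 1000 and over 4000 bases compared above. The part of transcript length in its level in saline replicate 5 was not tested. The log2 ratio of Tfrc to Tfr2 was -3.89 ± 0.85 in the controls and -3.25 ± 0.39 after CD95-Ab (SD, n = 5; exact permutation test, two-sided, p = 0.151, adjusted p = 0.201), and the difference passed without saline replicate 5 (0.99, adjusted p = 0.0212, exact permutation test).

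Lcn2 showed by far the largest change of the 10. Lcn2 (ENSMUSG00000026822, chr2:32384633-32388252, minus strand) encodes lipocalin 2, a secreted protein that binds iron-loaded bacterial siderophores and is made by stressed hepatocytes and by neutrophils. It was at 15.03, 57.2, 16.2, 11.9 and 47.8 CPM in the controls and at 2047, 2340.2, 2375, 1166 and 928 CPM after CD95-Ab. Each group fell into a higher and a lower set: saline replicates 2 and 5 stood above the other controls, and CD95-Ab replicates 1, 2 and 3 above replicates 4 and 5. Lcn2 rose by 5.90 ± 0.56 on the log2 scale (SE), or 59.7-fold (edgeR FDR = 8.58e-06), and stayed between 5.67 and 6.27 in the fits that left out a mouse.

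Neutrophil markers moved in the same direction as Lcn2. The 11 markers summed to 4.43 to 11.2 CPM in the controls and 114 to 477 CPM after CD95-Ab. All 8 that were tested were higher, beside 25.4% of all tested genes. Camp and Ltf, genes of granules that also carry lipocalin 2, reached at most 0.0742 and 0.0941 CPM in the controls. In CD95-Ab replicate 3 they were at 3.78 and 8.48 CPM. In the other CD95-Ab mice Camp was at 0.155 to 0.414 CPM and Ltf at 0.289 to 1.22 CPM. Camp, Ltf and Ly6g had too few counts to be tested. In CD95-Ab replicates 1 to 5 the neutrophil sums were 114, 284, 477, 299 and 372 CPM. Replicate 3 had both the highest sum and the highest Lcn2, whereas replicate 1 had the lowest sum beside 2047 CPM of Lcn2 and replicate 5 the lowest Lcn2 beside 372 CPM. Among the controls, saline replicate 5 had the highest sum (11.2 CPM) and an Lcn2 level (47.8 CPM) below only that of saline replicate 2. The part of these cells in the Lcn2 level was not tested. Lcn2 was tracked most closely by Myd88 (r = 0.991), the adaptor of Toll-like and interleukin 1 receptors, and by the noncoding gene Gm26541 (r = 0.990).

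**Figure D4:**
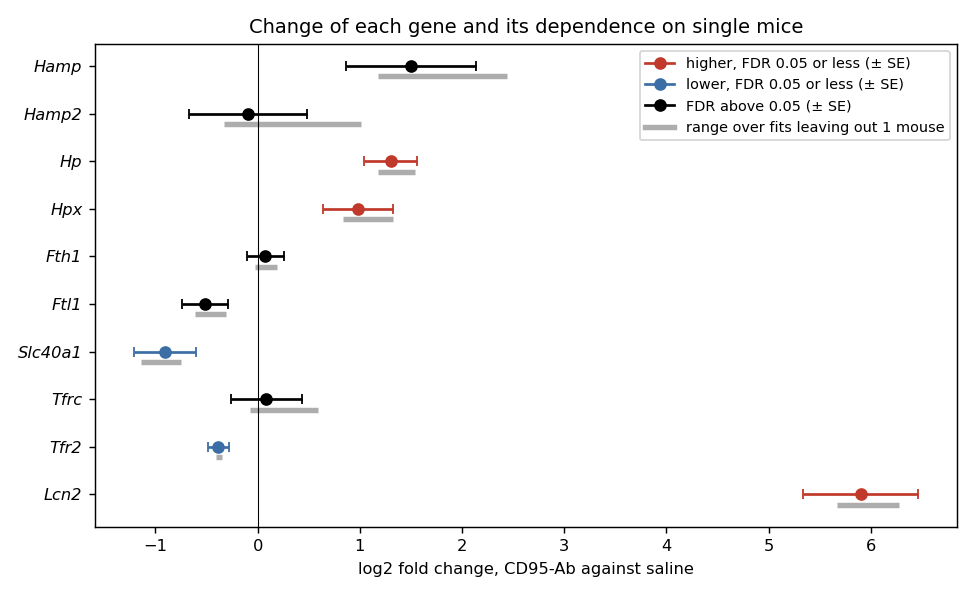
Log2 fold change of each gene, CD95-Ab against saline, with its SE (points and whiskers, edgeR, n = 5 mice per group) and the range over the 10 fits that left out a mouse (grey bars). Lcn2 stands at 5.90, and the grey bars of Hamp2, Fth1 and Tfrc cross 0.

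Levels between genes were compared in FPKM, which is per transcript length. In the controls the order of the means was Hpx (4561 FPKM), Ftl1 (3786), Hp (3568), Fth1 (1243), Hamp (711), Hamp2 (194), Tfr2 (123), Slc40a1 (49.1), Lcn2 (35.4) and Tfrc (7.90). Most single controls had another order at 2 places. Hpx lay above Ftl1 in only 2 of the 5 controls, with medians of 2673 and 3588 FPKM. Hamp2 lay above Tfr2 in only 2 of the 5, with medians of 89.55 and 118 FPKM. The ranges of neighbours overlapped except between Hp and Fth1 and between Tfr2 and Slc40a1. After CD95-Ab, Hpx (8305 FPKM) and Hp (8197) led, followed by Ftl1 (2561), Lcn2 (2021), Hamp (1999.9), Fth1 (1235), Hamp2 (187), Tfr2 (88.9), Slc40a1 (25.0) and Tfrc (7.51). Lcn2 stood next to the lowest in the controls and between Ftl1 and Hamp after CD95-Ab, where its range overlapped those of Ftl1 and Hamp. The 10 genes together took 15655 ± 4782 CPM in the controls and 29008 ± 4466 CPM after CD95-Ab (SD, n = 5), mostly Hp and Hpx.

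Of 74 other genes of iron and heme metabolism, 71 could be tested, and 24 of them (33.8%) were higher and 14 (19.7%) lower after CD95-Ab, beside 25.4% and 22.0% of all tested genes. Upstream of hepcidin, the inflammatory genes rose: 8 of 10 were higher and 1 lower. Il6, the cytokine that induces hepcidin, was at 0 to 0.204 CPM in the controls and 0.481 to 2.14 CPM after CD95-Ab (log2 fold change 3.80, edgeR FDR = 0.000447). Inhbb, which encodes the activin B subunit, rose from 1.88 ± 1.41 to 38.2 ± 10.8 CPM (SD, n = 5) and Socs3, a feedback inhibitor of STAT3, from 16.1 ± 8.79 to 190 ± 74.1 CPM. Il1b (3.78), Jak2 (2.02) and Stat3 (0.97) rose on the log2 scale, and Cebpa, a hepatocyte transcription factor gene that supports hepcidin expression, fell by 1.63.

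Of the 17 tested genes of BMP control, 4 were higher and 4 lower (23.5% each), shares near those of all tested genes. Bmp6, the main BMP ligand of hepcidin control, rose from 0.633 ± 0.207 to 1.51 ± 0.416 CPM (SD, n = 5; log2 fold change 1.26, edgeR FDR = 0.00313), and Smad1 rose by 0.89 on the log2 scale. Hjv, which encodes the BMP co-receptor hemojuvelin, fell by 1.21, Hfe, a partner of the transferrin receptors, by 0.43, and Tmprss6, the protease that cleaves hemojuvelin, by 0.76 on the log2 scale. Among BMP target genes, Atoh8 fell by 1.75 on the log2 scale, while Id1 (0.07) and Smad7 (-0.16) did not pass. Smad6, named after its values were seen, rose by 0.70 on the log2 scale with overlapping ranges (edgeR FDR = 0.0296). Id1 was at 16.1 CPM in saline replicate 5 and 2.31 to 4.27 CPM in the other controls, and without that mouse its log2 fold change was 0.83 (edgeR FDR = 0.0155).

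Among 11 tested genes of iron transport and reduction, 6 were higher (54.5%) and 1 lower (9.09%), beside 25.4% and 22.0% of all tested genes. The lower gene, Steap3, named after its values were seen, fell by 0.92 on the log2 scale without overlap (edgeR FDR = 0.00263). Steap4, an endosomal metal reductase, rose from 112 ± 27.5 to 2238 ± 953 CPM (SD, n = 5; log2 fold change 4.32, edgeR FDR = 2.9e-06). Scara5, a ferritin receptor, rose by 2.25, Slc11a2, an importer of ferrous iron, by 1.99, Cp, which encodes the ferroxidase ceruloplasmin, by 1.29 and Slc39a14, which takes up iron not bound to transferrin, by 0.95 on the log2 scale. Trf, which encodes transferrin, was at 14401 ± 2647 and 14604 ± 2577 CPM (SD, n = 5) and did not pass (log2 fold change 0.02, edgeR FDR = 0.946; -0.07 with total counts alone). Of the 6 tested genes of iron sensing and storage, Aco1 and Ireb2, which encode the iron regulatory proteins, fell by 0.59 and 0.49, Ncoa4, the receptor that delivers ferritin to lysosomes, fell by 0.38 (edgeR FDR = 0.0479, a call kept in 3 of the 10 fits that left out a mouse), and Fbxl5, which promotes breakdown of iron regulatory protein 2, rose by 0.73 on the log2 scale.

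**Figure D5:**
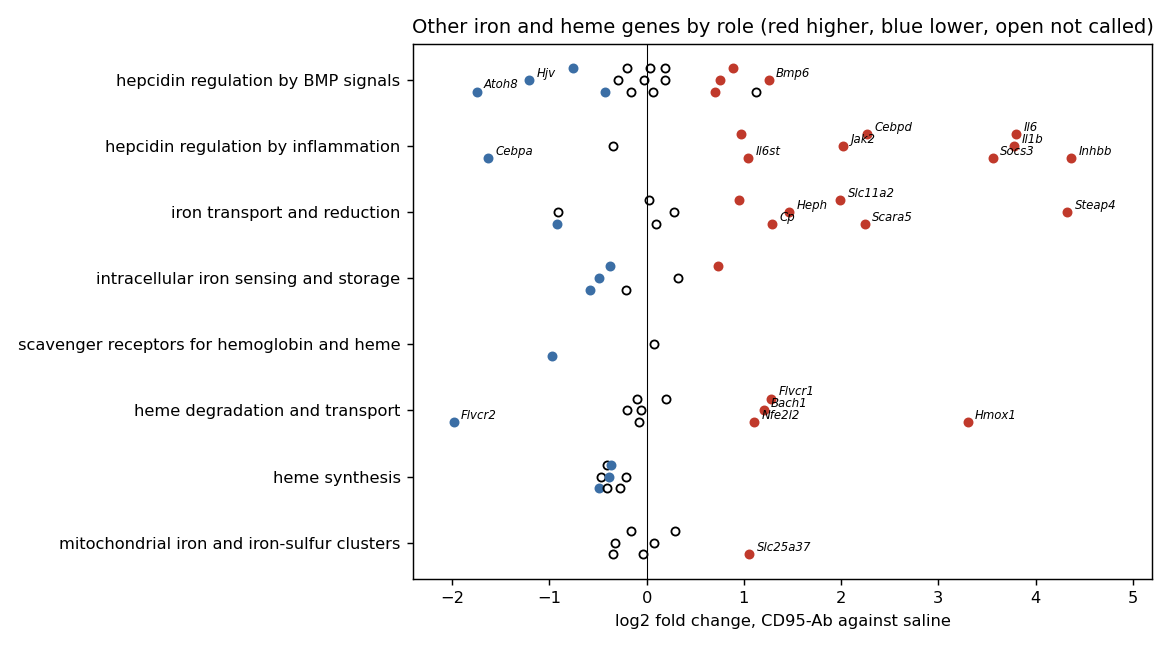
Log2 fold change, CD95-Ab against saline, of the 71 tested genes of iron and heme metabolism outside the 10, by role. Filled red points were higher and filled blue points lower at an FDR of 0.05, open points did not pass, and called genes with a log2 fold change of at least 1 in size are named. Inflammatory regulators lie mostly to the right, with 8 of 10 higher, and the 8 genes of heme synthesis lie to the left of 0.

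For heme, 4 of the 10 genes of degradation and transport were higher (40%) and 1 was lower (10%), beside 25.4% and 22.0% of all tested genes. Hmox1, the inducible heme oxygenase, rose from 27.2 ± 12.7 to 269 ± 61.4 CPM (SD, n = 5; log2 fold change 3.30, edgeR FDR = 7.3e-06). The heme exporter gene Flvcr1 (1.28), the heme-regulated repressor gene Bach1 (1.201) and Nfe2l2 (1.11), which encodes the oxidative stress factor NRF2, rose on the log2 scale. The lower gene, Flvcr2, named after its values were seen, fell by 1.98 on the log2 scale. All 8 genes of heme synthesis had a log2 fold change below 0, with a median of -0.40 beside 0.0064 over all tested genes. Of the 8, 3 were lower (37.5%, beside 22.0% of all tested genes). Among these were Uros, which fell by 0.39, and Urod, which fell by 0.49 on the log2 scale. Alas1, the rate-limiting enzyme, had -0.21 ± 0.38 (SE, edgeR FDR = 0.668). Cd163, the macrophage receptor for haptoglobin-bound hemoglobin, fell from 9.83 ± 3.998 to 4.99 ± 2.51 CPM (SD, n = 5; edgeR FDR = 0.0497, a call kept in 3 of the 10 fits that left out a mouse). Of 7 genes of mitochondrial iron use, Slc25a37, the mitochondrial iron importer, rose by 1.06 on the log2 scale and 6 did not pass.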

How the data were processed

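Livers of 5 saline-injected and 5 CD95-Ab-injected mice were compared, with groups taken from the sample titles. The expected counts that the authors deposited come from RSEM 1.2.19 and are not normalized. They were rounded to whole numbers before use. FPKM were deposited beside them, scaled for length and total, and were used for levels between genes and as an alternative. The genome build and mouse annotation release are not given in the sources used here, and the text names a human Gencode release although the identifiers are mouse. The labels name the HiSeq 1000 and the methods the HiSeq 2000, and the labels give total RNA made into TruSeq libraries and sequenced from both ends.

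Identifiers were matched to GENCODE M21 (GRCm38), which gave 37606 of 38922 a symbol. Genes were kept by filterByExpr with a minimum count of 10 (13719 genes, with all 10 members), scaled with TMM factors and compared between the groups, with no covariate, by edgeR's quasi-likelihood test (version 4.0.16, R 4.3.3) and Benjamini-Hochberg adjustment (FDR). SE of log2 fold changes were derived from the F statistic. Ratios used counts plus 0.5 and exact permutation tests. Likeness was Pearson's r of log2 CPM with a prior count of 2. Other steps used scipy 1.17.1 and pandas 2.3.3 in Python 3.11.15. Replicates of a group differed beyond sampling noise in all 20 pairs. Simulated counts in which 200 of 13641 genes moved by 2 on the log2 scale were used to check the code: it found 100% of these genes, and false calls made up 6.54% of those it made.

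The members and lists were chosen with earlier results of these data known. The genes named were all members, up to 4 called genes with the smallest FDR in each role of the pathway list, and 16 genes set by name. Not every gene that this rule names is reported here. Marker lists covered hepatocytes, Kupffer cells, neutrophils, erythroid, sinusoidal endothelial, stellate, cholangiocyte and lymphoid cells, and RNA without a poly(A) tail. Alternatives were DESeq2 1.42.0, the likelihood ratio test, other scaling and filters, limma 3.58.1 on FPKM, a block for the replicate number, and fits without each mouse in turn.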

Additional observations from a re-analysis of the deposited data

Results flagged for a closer look

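In 3 of the 28 sets of 5 mice examined, 1 mouse lay far from the others by Dixon's criterion, and in each it was saline replicate 5. Hamp2 was at 243 CPM in that mouse against 27.8 to 53.3 CPM in the other controls. Ftl1 was at 5230.5 CPM against 2842 to 3052 CPM. Tfrc was at 57.5 CPM against 14.2 to 22.0 CPM. For independent sets of normally distributed values, chance alone picks out about 1 in 20. The sets here reuse the same mice, so that rate may not hold for them. The same mouse had relatively more short transcripts, and Hamp2 and Ftl1 are short while Tfrc is not. The part of transcript length in these levels was not tested.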

How the results depend on the processing

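The counts of members called were 3 higher and 2 lower. Leaving out 1 mouse gave 2 to 5 higher and 1 to 2 lower, with 5 higher without saline replicate 5 (Hamp, Hamp2 and Tfrc added, Hpx lost). With saline replicate 5 and CD95-Ab replicate 4 both left out, a choice made after seeing the data, 5 were higher (Hamp, Hamp2, Hp, Tfrc and Lcn2). The pathway counts ranged from 22 to 25 higher and from 11 to 17 lower over the mice left out. The replicate numbers did not pair the mice (correlation of same-numbered deviations from -0.27 to 0.26), and the replicate block called 5987 genes in place of 6495, called Hamp (2.12, edgeR FDR = 0.0237) and turned Hamp2 to 0.55. Under that pairing the ratios of Hamp2 to Hamp (-1.61) and Ftl1 to Fth1 (-0.56) had an adjusted p of 0.125 by an exact sign-flip permutation test, in which 5 pairs cannot go below p = 0.0625. Over the mice left out, the differences ranged from -1.77 to -1.41 for Hamp2 to Hamp, from -0.66 to -0.50 for Ftl1 to Fth1, from 0.42 to 0.99 for Tfrc to Tfr2 and from 0.12 to 0.38 for Hp to Hpx. With both mice left out, Tfrc to Tfr2 was 0.96 (adjusted p = 0.0381, exact permutation test). Signs turned for Hamp2 (0.33 with limma on FPKM and 0.82 with both mice left out), Fth1 (-0.0053 with total counts, -0.018 with limma), Trf (-0.070 with total counts, -0.014 without a filter, -0.055 with limma) and Alas1 (0.085 with both left out). Over the mice left out, values crossed 0 for Hamp2 (-0.33 to 1.02), Fth1 (-0.028 to 0.19), Tfrc (-0.077 to 0.59), Id1 (-0.14 to 0.83), Trf (-0.074 to 0.10) and Alas1 (-0.42 to 0.0086). The cause of these shifts was not tested. Hp, Tfr2 and Lcn2 passed in every alternative run. Il6 could not be tested with at least 10 counts required in every mouse. Low counts limited Il6, which was under 3 CPM in all mice.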

Other observations

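Other cell type lists differed between the groups as well. The summed CPM of sinusoidal endothelial markers was 59.1 to 142 in the controls and 184 to 324 after CD95-Ab, that of stellate markers 162 to 256 and 384 to 721, that of cholangiocyte markers 18.4 to 33.9 and 48.4 to 186, and that of T, NK and B cell markers 1.16 to 4.45 and 6.84 to 14.98. RNA without a poly(A) tail summed to 72.3 to 164 and 419 to 1441 CPM, and 5 of the 7 tested were higher (71.4%, beside 25.4% of all tested genes). Rn7sk was at 0.204 to 0.808 CPM in the controls and 355 to 1301 CPM after CD95-Ab. Hist1h2bc and Hist1h1c, which made up most of the sum in the controls, did not pass. Whether the RNA or libraries of the groups differed in make-up, and the part of that in the other fold changes, was not tested. Negative acute-phase genes were lower in 5 of 6 cases (83.3%, beside 22.0% of all tested genes). Alb was at 76153 to 98067 CPM in the controls and 30505 to 60979 CPM after CD95-Ab.

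The genes nearest in pattern to the other members over the 10 mice, given as a description, were Impact for Hamp (r = 0.963), Denr for Hamp2 (r = 0.905), Rtp4 for Hpx (r = 0.982), Gnb2 for Fth1 (r = 0.969), Eif3h for Ftl1 (r = 0.972), Rab3d for Slc40a1 (r = 0.977) and Naa20 for Tfrc (r = 0.924). Among members, the deviations from the group means of Hp and Hpx had r = 0.864 and those of Fth1 and Ftl1 r = 0.838.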
